A study of Mus musculus with 6 samples.

Results

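A group of 10 genes of the oxygen-sensing system built around the hypoxia-inducible factors (HIFs) were read from RNA-seq counts of C17.2 cells after hypoxia/reoxygenation (H/R). They were chosen by gene name: the HIF subunits Hif1a, Epas1, Hif3a, Arnt and Arnt2, the prolyl hydroxylases Egln1, Egln2 and Egln3, the asparaginyl hydroxylase Hif1an, and Vhl, the substrate receptor of the ubiquitin ligase that removes HIF. Of these 10 genes, 9 had a row among the 14665 protein-coding genes of the count table, and all 9 were among the 11104 genes that passed the filter on low counts and were tested. Hif3a was not analysed here at the gene level. C17.2 is an immortalized mouse neural stem cell (NSC) line. Both groups are cells of this single line, and their genotype label is WT. In the H/R group, cells were kept at 5% oxygen for 12 h and then returned to normal oxygen for 48 h, as an in vitro model of ischemia and reperfusion, and the control cells carry the label control. RNA was taken after the 48 h of reoxygenation, so the libraries do not show the hypoxic phase itself. Each group has 3 libraries, and whether separate cultures stand behind them is not given in the sources used here. The p-values therefore cover only the variation among these libraries, which may be technical.

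HIF is a dimer of an oxygen-labile alpha subunit (Hif1a, Epas1 or Hif3a) and a stable beta subunit (Arnt or Arnt2), both of the bHLH-PAS family. In oxygen, the Egln enzymes hydroxylate prolines of the alpha subunit, which lets Vhl bind it and send it to the proteasome, while Hif1an hydroxylates an asparagine that blocks the binding of the coactivators p300 and CBP. In hypoxia the alpha subunit escapes both steps and the dimer binds hypoxia response elements with an RCGTG core. Egln3 and, in many cells, Egln1 are themselves HIF targets. This control acts largely on protein stability, which RNA counts do not measure.

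The stretch before the start site of 4 of these genes is shown, since Hif1a, Arnt and Egln1 had the smallest adjusted p of the group and Egln3 is a textbook HIF target. The sequences are the 250 bases upstream of the RefSeq start in build GRCm38.p6, 5′ to 3′ on the strand of the gene. Capitals mark each match to ACGTG or GCGTG, the letters of the HIF core, searched on both strands, and the run CACGTG of Hif1a holds a match on each strand that overlap each other. The windows lie at chr12:73907617-73907866 (Hif1a, plus strand), chr3:95434140-95434389 (Arnt, plus strand), chr8:124949255-124949504 (Egln1, minus strand) and chr12:54203875-54204124 (Egln3, minus strand).
Hif1a: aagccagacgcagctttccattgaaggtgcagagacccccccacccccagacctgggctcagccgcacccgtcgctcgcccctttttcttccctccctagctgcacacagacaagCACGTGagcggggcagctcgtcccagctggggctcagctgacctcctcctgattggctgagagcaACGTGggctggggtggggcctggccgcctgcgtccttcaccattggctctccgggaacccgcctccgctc
Arnt: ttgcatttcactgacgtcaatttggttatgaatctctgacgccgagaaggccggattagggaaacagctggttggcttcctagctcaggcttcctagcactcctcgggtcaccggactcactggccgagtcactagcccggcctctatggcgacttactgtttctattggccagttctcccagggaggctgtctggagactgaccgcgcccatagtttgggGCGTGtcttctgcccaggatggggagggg
Egln1: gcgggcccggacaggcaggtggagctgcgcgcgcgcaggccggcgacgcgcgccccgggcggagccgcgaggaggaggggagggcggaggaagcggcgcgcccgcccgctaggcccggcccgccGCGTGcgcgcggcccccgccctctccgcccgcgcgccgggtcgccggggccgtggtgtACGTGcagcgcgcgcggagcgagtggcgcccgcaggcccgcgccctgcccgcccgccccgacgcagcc
Egln3: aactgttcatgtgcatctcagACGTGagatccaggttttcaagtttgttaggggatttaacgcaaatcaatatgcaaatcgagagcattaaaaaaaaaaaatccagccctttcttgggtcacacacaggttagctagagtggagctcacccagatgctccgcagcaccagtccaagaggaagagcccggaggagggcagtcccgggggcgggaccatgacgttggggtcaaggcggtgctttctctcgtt

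In the full window, from 250 bases before to 50 after the start, RefSeq entries were found for 9 of the 10 genes, Epas1 having none. ACGTG occurred in the windows of 4 genes (Hif1a, Egln1, Egln2 and Egln3), and ACGTG or GCGTG in those of 6, with Arnt and Hif3a added. Of all 32851 promoter windows of the same length, 19.6% held ACGTG, 32.4% held GCGTG and 43.8% held at least 1 of them. The first base of the matches lay at -135, -134 and -70 from the start in Hif1a, at -126 (GCGTG) and -68 (ACGTG) in Egln1, at -229 in Egln3 and at -29 in Arnt (GCGTG). Egln2 had more than 1 window, with ACGTG at -48, -4 and -3 and GCGTG at -151, -137 and -34 in the first, and GCGTG at -116 in the other. In Hif3a GCGTG lay at -230 and -186. No match to these letters was found in the windows of Vhl, Arnt2 and Hif1an. A match is a run of letters and not a measured binding site.

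Gene counts summed to between 7267809 and 8371882 in the control libraries and to between 15639751 and 16830389 in the H/R libraries, so a count in the control group has the lower precision. Levels are given in CPM, counts as a share of the library total scaled by TMM factors (a normalization that centres the bulk of the genes), and the coefficient of variation between replicates was 0.144. Differences were tested with the two-sided quasi-likelihood test of edgeR with Benjamini-Hochberg adjustment over all tested genes, and a gene was called at an adjusted p under 0.05. When the scaling factors were left out, the log2 fold change of the median gene moved from 0.01 to 0.22. The NSC markers with a row (Nes, Sox2, Vim, Msi1 and Hes1) were all tested and summed to 1404 to 1497 CPM in the control and 1643 to 1734 CPM in the H/R libraries. Most of this sum was Vim (1221 ± 51.2 and 1329 ± 34.1 CPM). Only Nes, an intermediate filament of neural progenitors, was called, and it was higher after H/R (196 ± 16.3 and 331 ± 19.2 CPM). Sox2 (29.1 and 31.0 CPM), Hes1 (1.54 and 3.18 CPM) and Msi1, which went down (9.65 and 6.77 CPM), were not called, nor was Vim. The astrocyte markers summed to at most 1.37 CPM and the microglia markers to at most 0.649 CPM in any library. The fibroblast collagen genes Col1a1 and Col1a2 were abundant in both groups, and the fibroblast markers summed to 4478 to 6276 CPM in control and 4224 to 5427 CPM in H/R libraries. The sum is carried by the collagens, and of its 4 tested genes only Pdgfra, a growth factor receptor, was called, rising from 11.6 ± 1.59 to 29.5 ± 1.74 CPM (log2 fold change 1.35). Map2 of the neuron list was lower after H/R (76.7 ± 3.99 and 34.9 ± 2.44 CPM), while the neuronal Tubb3 and Snap25 averaged under 1 CPM. The endothelial markers, of which 1 was tested and none called, summed to 13.6 to 26.9 and 20.7 to 29.6 CPM. The part of these shifts in the results below was not tested, and in bulk RNA fewer cells of a type and less RNA per cell cannot be told apart.

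Of the alpha subunits, Hif1a was the abundant one and was lower after H/R. The Hif1a gene (ENSMUSG00000021109, chr12:73901375-73947530 on the plus strand of mm10) encodes the widely expressed alpha subunit that drives the glycolytic response. Its level was 299, 307 and 326 CPM in control libraries 1 to 3 and 209, 207 and 238 CPM in the H/R libraries. The groups were separate, every H/R library lying below the lowest control. The mean fell by 29.8%, from 311 ± 14.0 to 218 ± 17.7 CPM (SD, n = 3 libraries each), a log2 fold change of -0.51 (SE 0.09, adjusted p = 0.000584, edgeR's quasi-likelihood test). It was past the threshold in all 14 alternatives of processing, at log2 fold changes from -0.58 to -0.30. In the annotation 330 bases of its exons (5.60%) also belong to the antisense gene Gm15283 and 148 to Gm49321, neither of which has a row in the table. The strand setting of the counting is not given in the sources used here, so reads from the antisense gene cannot be told apart.

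Epas1 (chr17:86753700-86833410, plus strand), which encodes HIF-2 alpha, the subunit linked to erythropoietin and vascular genes, was scarce. Its CPM was 2.96, 2.73 and 8.23 in the controls and 5.17, 3.39 and 4.83 in the H/R libraries. Control library 3 stood above the others, and the groups overlapped. These values rest on 23, 21 and 55 reads in control cells and on 94, 57 and 82 reads after H/R. Its log2 fold change was -0.04 with an SE of 0.45 (adjusted p = 0.95, edgeR's quasi-likelihood test), and it was 0.64 without control replicate 3, again not past the threshold.

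Arnt, the common beta subunit (ENSMUSG00000015522, chr3:95434388-95497240, plus strand), was lower after H/R, and its 3 libraries of a group lay close together. An SD from 3 libraries is itself uncertain, and the coefficient of variation between replicates was 0.144 over the tested genes. The control libraries held 179, 178 and 179 CPM and the H/R libraries 141, 141 and 136 CPM. The groups were separate, with every H/R library below every control. The mean went from 179 ± 0.539 to 139 ± 2.92 CPM (SD, n = 3 each), a log2 fold change of -0.36 (SE 0.08, adjusted p = 0.0044, edgeR's quasi-likelihood test). Arnt was past the threshold in 13 of 14 alternatives, the exception being the fit without scaling factors, in which its log2 fold change was -0.15 (adjusted p = 0.174).

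Arnt2, the beta subunit of neural and renal tissue (chr7:84246278-84410176, minus strand), was near the lower limit of what was counted. The control libraries held 10, 27 and 13 reads and the H/R libraries 26, 37 and 11. On the CPM scale these were 1.29, 3.51 and 1.95 in the control and 1.43, 2.20 and 0.647 in the H/R libraries, so the groups overlapped. The log2 fold change of -0.66 had an SE of 0.62 (adjusted p = 0.434, edgeR's quasi-likelihood test), and no difference was detected at these low counts. The value was -0.18 without control replicate 2, -0.31 without H/R replicate 3 and -1.10 without H/R replicate 2, none of them past the threshold.

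**Figure D1:**
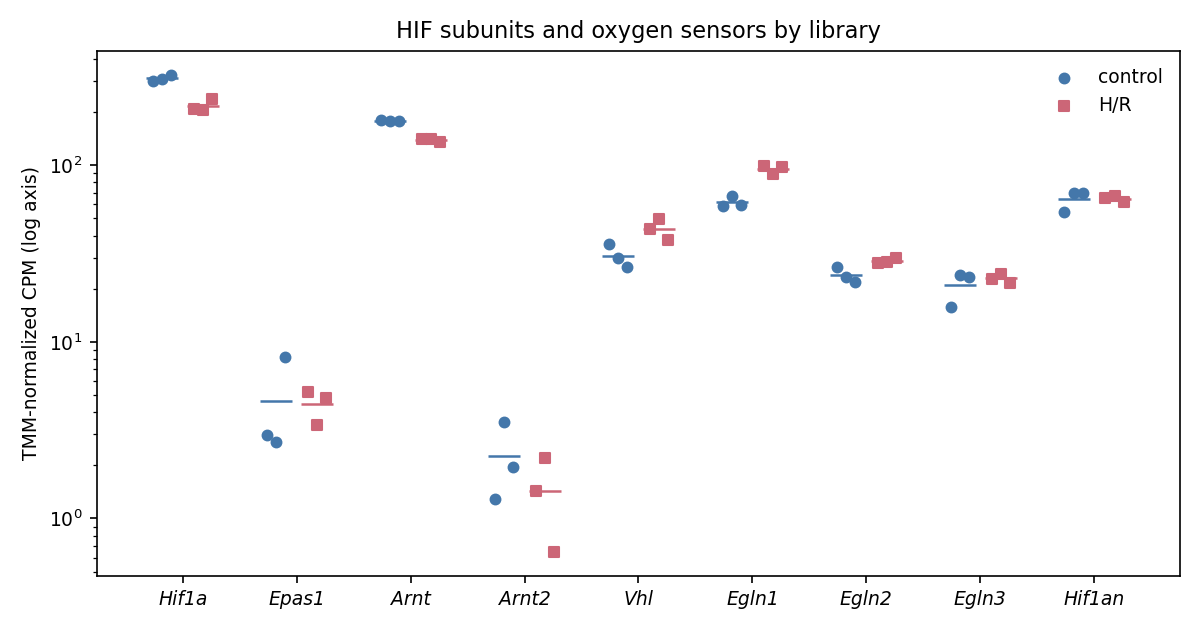
Level of each gene in every library, as CPM after TMM scaling (log axis), with circles for the 3 control and squares for the 3 H/R libraries and bars for the group means. The squares of Hif1a (207 to 238 CPM) and Arnt (136 to 141 CPM) lie below their circles, those of Egln1 (88.7 to 98.9 CPM) and Vhl (37.8 to 49.9 CPM) above theirs, and Epas1 and Arnt2 lie at under 10 CPM in all 6 libraries.

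Among the oxygen sensors, Egln1 rose and Egln2, Egln3 and Hif1an did not pass the test. Egln1 (ENSMUSG00000031987, chr8:124908587-124949324, minus strand) encodes PHD2, the main prolyl hydroxylase that sets HIF-1 alpha stability in normal oxygen. Its level was 59.0, 66.8 and 59.7 CPM in the control libraries and 98.9, 88.7 and 97.5 CPM in the H/R libraries. No H/R library came down to the control range. The mean rose from 61.8 ± 4.28 to 95.0 ± 5.52 CPM (SD, n = 3 each), which is 1.54-fold, with a log2 fold change of 0.62 (SE 0.10, adjusted p = 0.000465, edgeR's quasi-likelihood test). Egln1 was past the threshold in all 14 alternatives, at log2 fold changes from 0.56 to 0.83.

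Egln2 (chr7:27158658-27166802, minus strand), which encodes PHD1, a mostly nuclear prolyl hydroxylase, had 26.4, 23.4 and 21.7 CPM in the control and 27.9, 28.4 and 29.8 CPM in the H/R libraries. The H/R libraries lay above the control ones, but the lowest H/R and the highest control library were close. The log2 fold change was 0.27 with an SE of 0.15 (adjusted p = 0.175, edgeR's quasi-likelihood test), and only the fit without scaling factors, among the 14 alternatives, put it past the threshold (0.48, adjusted p = 0.0183). With an offset for length and GC content the log2 fold change was 0.11 (adjusted p = 0.609), and the longest Egln2 transcript, at 62.2% GC, had the highest GC content of the 9 genes.

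Egln3 (chr12:54178981-54203860, minus strand), encoding PHD3, the hydroxylase most strongly induced by hypoxia in many cells, had 15.7, 24.0 and 23.2 CPM in the control and 22.7, 24.4 and 21.5 CPM in the H/R libraries. Control library 1 was the low one, and the remaining 5 libraries lay within 21.5 to 24.4 CPM. The log2 fold change was 0.13 with an SE of 0.18 (adjusted p = 0.626, edgeR's quasi-likelihood test) and -0.05 without control replicate 1. Hif1an, which encodes the asparaginyl hydroxylase FIH (chr19:44562850-44576274, plus strand), had 54.6, 69.8 and 69.7 CPM in the control and 64.9, 67.2 and 62.3 CPM in the H/R libraries. Here too control library 1 was the lowest, and the groups overlapped. The log2 fold change was 0.00 with an SE of 0.12 (adjusted p = 0.988, edgeR's quasi-likelihood test).

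Vhl (ENSMUSG00000033933, chr6:113623959-113631633, plus strand) was higher after H/R, less firmly than Egln1. Its level was 36.0, 30.0 and 26.5 CPM in the control and 43.6, 49.9 and 37.8 CPM in the H/R libraries. The groups were separate, with control library 1 and H/R library 3 nearly touching. The mean went from 30.8 ± 4.79 to 43.7 ± 6.07 CPM (SD, n = 3 each), a log2 fold change of 0.50 (SE 0.15, adjusted p = 0.021, edgeR's quasi-likelihood test). The direction held in all 14 alternatives, but the call was lost without control replicate 2 (0.47, adjusted p = 0.0734), without control replicate 3 (0.40, adjusted p = 0.0645), without H/R replicate 1 (0.51, adjusted p = 0.0607) and without H/R replicate 2 (0.40, adjusted p = 0.116).

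Of the 9 genes, 2 rose (Egln1 and Vhl), 2 fell (Hif1a and Arnt) and 5 were not called. The called share of 44.4% stood beside 37.8% of all tested genes, 18.8% being higher and 19.0% lower, so the share called is near the background. The median log2 fold change of the 9 genes was 0.00, that of all tested genes 0.01. In 5 of the 9 genes the libraries of the groups did not overlap, against 49.7% of all tested genes. With the cut-offs of the study (2-fold, and p under 0.05 before adjustment), 0 of the 9 genes passed, against 11.2% of all tested genes. Without scaling factors 3 genes were called higher (Egln1, Vhl and Egln2) and 1 lower (Hif1a), while 33.4% of all tested genes were then called higher and 11.5% lower. With 3 libraries against 3, an exact permutation test of a single gene cannot give a p under 0.1.

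**Figure D2:**
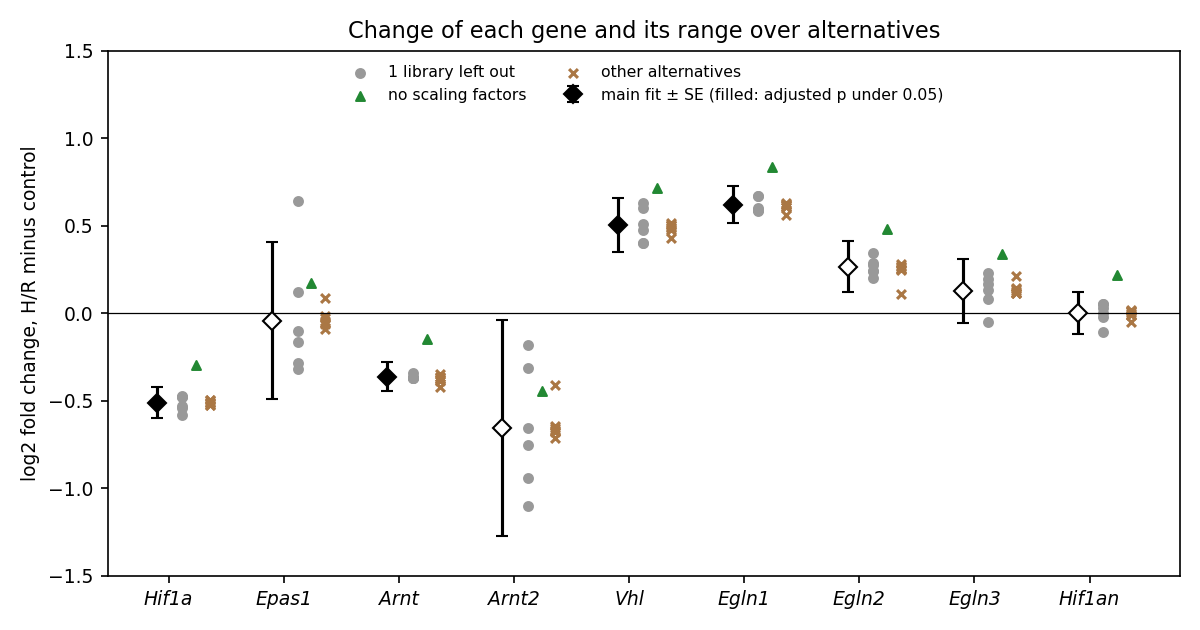
Log2 fold change of H/R minus control for each gene, with diamonds and error bars for the main estimate ± SE, filled where the adjusted p is under 0.05, and smaller marks for the alternatives. Hif1a and Arnt stay below 0 and Vhl and Egln1 above 0 under every alternative, while the marks of Epas1, Egln3 and Hif1an fall on both sides of 0.

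To set the genes against each other, CPM was divided by the length of the merged exons in kilobases, since a longer transcript gives more reads. The merged exons take in those of all annotated transcripts, so they can be longer than the mRNA that was counted. On this scale the control order was led by Hif1a at 52.7 ± 2.37, followed by Arnt at 22.3 ± 0.0673 and Egln1 at 17.2 ± 1.19 CPM per kilobase, each separate from its neighbour in every library. Vhl (10.3), Hif1an (9.80), Egln2 (8.51) and Egln3 (7.88) formed a middle group in which neighbours overlapped. Epas1 (0.83 CPM per kilobase) and Arnt2 (0.29) came last and were separate from the rest. After H/R, Hif1a was still first at 37.0 ± 3.00, but Egln1 (26.4 ± 1.54) stood above Arnt (17.4 ± 0.364 CPM per kilobase), and the libraries of these neighbours did not overlap. Vhl followed at 14.6, then Egln2 (10.3) and Hif1an (9.81), which overlapped, Egln3 (8.59), Epas1 (0.80) and Arnt2 (0.19 CPM per kilobase). The place of Egln1 above Arnt depends on the lengths used, 3594 bases for Egln1 and 8007 for Arnt. Without division by length, Arnt stayed above Egln1 after H/R (139 ± 2.92 and 95.0 ± 5.52 CPM). In both groups Hif1a thus stood far above Epas1 among the alpha subunits, and Arnt far above Arnt2 among the beta subunits.

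Ratios of these length-scaled values within a library do not depend on depth or on scaling factors, and were added after the values had been seen. The ratio of Egln1 to Hif1a was 0.324, 0.357 and 0.300 in the control and 0.778, 0.703 and 0.671 in the H/R libraries, with no overlap. Its mean went from 0.327 ± 0.0284 to 0.717 ± 0.0551 (n = 3 each, two-sided exact permutation p = 0.1, the smallest that 3 against 3 libraries can give). The ratio of Vhl to Hif1a was 0.236, 0.192 and 0.160 in the control and 0.411, 0.474 and 0.312 in the H/R libraries (exact permutation p = 0.1), again separate. Separation of these ratios was fixed beforehand, since every H/R library was above control for Egln1 and Vhl and below it for Hif1a. They and their p-values therefore add no support to the calls of the single genes. For Hif1an the ratio to Hif1a went from 0.186 ± 0.0204 to 0.267 ± 0.0297 (exact permutation p = 0.1), although the level of Hif1an itself was not called. The mean of Hif1an was 64.7 CPM in control and 64.8 CPM in H/R libraries, so the shift of this ratio is that of Hif1a. The ratio of Arnt to Hif1a overlapped between the groups, at 0.424 ± 0.0190 and 0.473 ± 0.0461 (exact permutation p = 0.3). Among the prolyl hydroxylases, Egln2 relative to Egln1 went from 0.497 ± 0.0678 to 0.389 ± 0.0249 without overlap (exact permutation p = 0.1), whereas Egln3 to Egln1 (0.457 ± 0.0862 and 0.326 ± 0.0389) and Egln3 to Egln2 (0.944 ± 0.276 and 0.839 ± 0.0730) overlapped. The ratio of Epas1 to Hif1a overlapped too, at 0.0155 ± 0.00966 and 0.0216 ± 0.00445. Of the 8 ratios compared, 4 had separate groups, of which those of Egln1 and Vhl to Hif1a had to be separate. Those of Hif1an to Hif1a and of Egln2 to Egln1 have a called gene as denominator and an uncalled one as numerator. They are therefore not results independent of the calls of Hif1a and Egln1. With 8 tests none can pass a Benjamini-Hochberg threshold of 0.05 in this design.

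**Figure D3:**
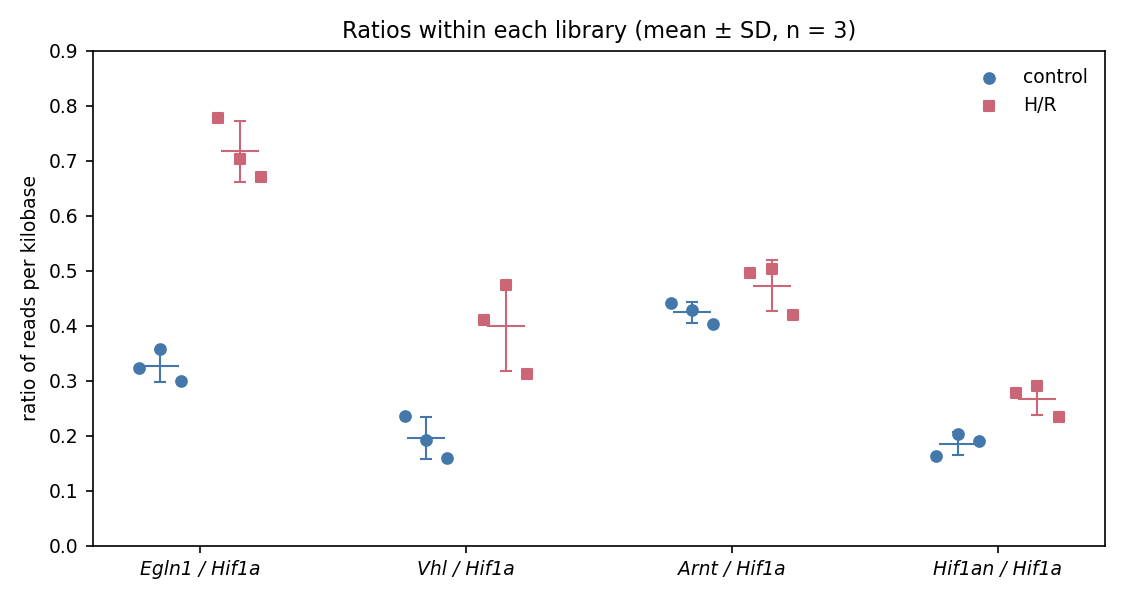
Ratio of reads per kilobase to Hif1a within each library, with circles for control, squares for H/R, and bars for the mean ± SD of 3 libraries. The ratio of Egln1 is 0.300 to 0.357 in control and 0.671 to 0.778 in H/R libraries, those of Vhl and Hif1an are also separate, and that of Arnt overlaps. For Egln1 and Vhl the separation follows from their own levels and that of Hif1a. The level of Hif1an was nearly the same in both groups, so the shift of its ratio is that of Hif1a.

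The wider pathway was read from 6 lists, of which 77 genes were tested. After H/R 6 of them (7.79%) were called higher and 35 (45.5%) lower, against 18.8% and 19.0% of all tested genes. Without scaling factors the split was 14 higher and 25 lower, while 33.4% of all tested genes were then called higher and 11.5% lower. Of the partners that join Vhl in its ubiquitin ligase, 4 were tested. Cul2, the cullin scaffold, fell from 119 ± 11.6 to 69.8 ± 5.21 CPM (log2 fold change -0.77) and Tceb1, elongin C, from 77.0 ± 10.6 to 55.8 ± 4.02 CPM (-0.47), so these partners moved opposite to Vhl. Rbx1 (-0.26) and Tceb2 (-0.15) were not called, and the call of Tceb1 was lost without H/R replicate 1 and without scaling factors, which left 1 partner called. With DESeq2, RLE size factors, the filter of 1 CPM in 3 libraries, thinned H/R counts or the length and GC offset, 3 partners were called lower.

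Of 13 other HIF regulators and coactivators, 4 rose and 4 fell, 30.8% each, against 18.8% and 19.0% of all tested genes. Their median log2 fold change was -0.11, against 0.01 of all tested genes. The coactivators Ep300 (p300) and Crebbp (CBP), which bind the alpha subunit that escaped hydroxylation by Hif1an, rose from 273 ± 13.2 to 370.0 ± 10.8 CPM (log2 fold change 0.44) and from 335 ± 21.7 to 408 ± 8.83 CPM (0.28). Senp1, a SUMO protease that stabilizes HIF-1 alpha, rose by 0.49 on the log2 scale, and Siah1b, a ubiquitin ligase of the Siah family that acts on the prolyl hydroxylases, by 1.18 at 1.95 ± 0.804 and 4.45 ± 0.518 CPM. The chaperone genes Hsp90aa1 (-1.14) and Hsp90ab1 (-0.76), whose products protect HIF-1 alpha, fell, as did Gnb2l1 (-1.06), the RACK1 gene that competes with them, and Ubxn7 (-0.35), an adaptor to the ligase. The control libraries of Hsp90aa1 were widely spread, at 1540.4, 3129 and 4617 CPM against 1358 to 1464 CPM after H/R, and its log2 fold change was -0.74 without control replicate 3 and -1.47 without control replicate 1. The calls of Crebbp (in 3 alternatives), Siah1b (in 8) and Ubxn7 (without scaling factors) depended on the setting. Leaving out H/R replicate 1 or H/R replicate 2 reduced the genes called higher in this list from 4 to 2.

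Of 7 tested relatives of the subunits in the bHLH-PAS family and its PAS coactivators (median -0.25), 1 was called (14.3%, against 37.8% of all tested genes). This was Ahr, the dioxin receptor and a further partner of Arnt, which fell from 47.3 ± 2.85 to 34.7 ± 5.87 CPM (log2 fold change -0.45). Its call was lost without H/R replicate 1, without H/R replicate 2 and without scaling factors. The last of these fits turned the list's calls to 3 higher and 0 lower, beside 33.4% and 11.5% of all tested genes in that fit. With no filter, with the replicate block and without control replicate 1 the list had 1 gene higher beside 1 lower, and with the length and GC offset it had 2 lower.

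Other oxygen-dependent enzymes moved mostly down, with 8 of 13 falling and 1 rising (median log2 fold change -0.57). That is 61.5% lower and 7.69% higher, against 19.0% and 18.8% of all tested genes. The collagen prolyl hydroxylases P4ha1, from 1087 ± 52.2 to 588 ± 17.1 CPM (-0.89), P4ha2 (-1.33) and Leprel1 (-1.15), and the lysyl hydroxylase Plod1 (-0.93) fell. The 1 that rose, Ado, is the thiol dioxygenase that senses oxygen through N-terminal cysteines. Its level was 88.3, 77.7 and 83.1 CPM in the control and 144, 137 and 127 CPM in the H/R libraries (log2 fold change 0.71, adjusted p = 0.0001, edgeR's quasi-likelihood test), while the other members of the class fell or were not called. Without control replicate 3 or without H/R replicate 3 the number higher was 2. Without scaling factors it was 3, and 33.4% of all tested genes were then higher.

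With TMM scaling, the targets through which HIF acts were lower or not called in all but 1 case. Of 18 tested glycolytic targets 10 fell and 0 rose (median log2 fold change -0.57), and of 22 other targets 10 fell and 1 rose (median -0.30). Together 20 of 40 were lower (50%) and 1 higher (2.5%), against 19.0% and 18.8% of all tested genes. Hk2, the hexokinase of hypoxic cells, had 138, 142 and 157 CPM in the control and 55.9, 57.2 and 58.0 CPM in the H/R libraries (-1.35). Slc2a1, the glucose transporter GLUT1, changed by -1.40 on the log2 scale, Aldoc by -3.07 and Aldoa by -0.78. Of the other targets, Vegfa, the angiogenic growth factor, changed by -1.08, Ndrg1 by -2.03, the oxidase gene Ero1l by -0.80, and Hmox1, heme oxygenase, by -5.08 from widely spread controls (490 to 2426 CPM). Lox, the collagen cross-linking lysyl oxidase, was the exception and rose from 122 ± 21.0 to 325 ± 12.2 CPM (1.41). Without scaling factors 2 glycolytic and 2 other targets were called higher, and without control replicate 3 it was 1 of each list. In the fit without scaling factors 33.4% of all tested genes were higher and 11.5% lower. Without scaling factors or without control replicate 2, 6 of the other targets were lower, and the number of glycolytic targets lower was 9 or 10 in these and every other fit that left out a library.

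**Figure D4:**
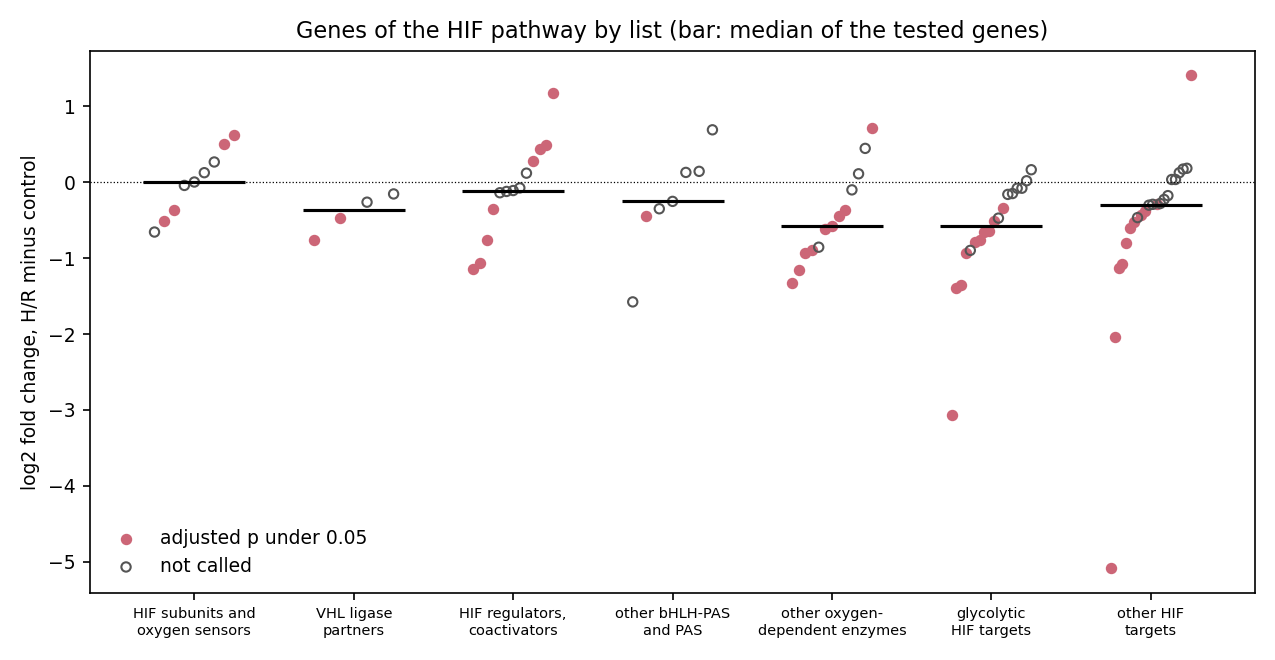
Log2 fold change of H/R minus control for each tested gene, grouped by list, with filled points at an adjusted p under 0.05 and a bar for the list's median. In the HIF subunits and oxygen sensors the points lie on both sides of 0, while in the target lists, with TMM scaling, nearly all filled points lie below 0, Lox at 1.41 being the exception.

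The annotation that the deposited table carries places 97 genes in the KEGG HIF-1 signaling pathway, among them 6 of the 10 HIF subunits and oxygen sensors, and 88 were tested. Of these, 22 were higher (25%) and 27 lower (30.7%), against 18.8% and 19.0% of all tested genes, with a median log2 fold change of -0.07. Without scaling factors 32 were higher and 19 lower, beside 33.4% and 11.5% of all tested genes. The genes with the smallest adjusted p among the higher ones were Pik3r3 (1.51), a regulatory subunit of PI3-kinase, Cdkn1a (1.72), the p21 cell-cycle inhibitor, Angpt1 (1.41), the angiopoietin, and Ifngr2 (0.95), a chain of the interferon-gamma receptor, all as log2 fold changes. Among the lower ones they were Hk2, Hmox1, Slc2a1 and Vegfa, already given above.

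For each of Hif1a, Arnt and Egln1 the tested genes averaging at least 5 CPM with the most alike pattern were looked up by the correlation of log2 CPM over the 6 libraries. Hif1a was followed most closely by Pabpc1 (r = 0.999), Rpl17 (0.999) and Eif2a (0.998). Rpl17 belongs to the ribosomal proteins, a family with near-identical copies in the genome, so its counts are uncertain. For Arnt the nearest were Tes (r = 1.00), Ifi44 (0.999) and Serpinf1 (0.999), and for Egln1 Ncapd3 (0.997), 2310022A10Rik (0.996) and Ddx19b (0.995). With 6 libraries in 2 groups, any shared difference between the groups gives a high value, and the points share libraries and depth. The size of the change was not alike, since Arnt changed by -0.36 on the log2 scale, Tes by -1.67 and Ifi44 by -4.26, while Hif1a (-0.51) and Pabpc1 (-0.54) were close.

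Noncoding transcripts at these loci gave no call. On simulated lncRNA counts the same test recovered 1.52% of 2-fold and 38.5% of 4-fold changes, so the absence of calls says little. In that simulation 200 lncRNAs were changed and 23 of 5968 were called, so its rates need not hold for the real counts. The lncRNA table assigns 13 transcripts to 7 of the 10 genes, 11 of them overlapping exons on the same strand and 2 antisense, and 5 passed the filter. Of these 5, 0 were called by edgeR (4.93% of all 6779 tested lncRNAs), 0 had an unadjusted p under 0.05 and 0 were called by DESeq2. The largest log2 fold change was 0.63 (SE 0.49, adjusted p = 0.586, edgeR's quasi-likelihood test) for ENSMUST00000149051 at Arnt, with 42, 19 and 5 reads in the control and 64, 72 and 60 in the H/R libraries, in which control library 3 was low. The antisense transcript AK035526 at Arnt2 had 31, 15 and 14 reads in the control and 45, 35 and 48 in the H/R libraries, and on the CPM scale the groups overlapped (log2 fold change 0.12, adjusted p = 0.937, same test). The other tested ones were ENSMUST00000152021 at Egln2 (adjusted p = 0.931) and ENSMUST00000156653 and ENSMUST00000140060 at Arnt (0.985 and 0.869). At Hif3a the intronic antisense AK014654 had 1 read, in H/R library 1. The transcripts that overlap exons in sense share sequence with the mRNA, so their reads cannot be told apart from those of the gene.

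The untested transcripts were ENSMUST00000157041 and ENSMUST00000149740 at Hif1a, ENSMUST00000147094 at Arnt, ENSMUST00000134906 at Egln2, ENSMUST00000128770 and ENSMUST00000131819 at Vhl and ENSMUST00000131032 at Hif1an, each with at most 14 reads in any library. Circular RNAs were found from 2 of the genes. A junction of Hif1a exons (chr12:73926557-73932476) had 2 reads in H/R library 1 and a junction of Arnt (chr3:95483772-95484993) 3 reads in control library 1, with 0 in the other 5 libraries in each case. With 1386 to 1846 junction reads per control and 2938 to 3335 per H/R library, these counts carry no comparison.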

How the data were processed

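Ribosomal RNA was removed from total RNA of C17.2 cells before library construction, and 3 control and 3 H/R libraries were sequenced. Per the labels, the authors used cutadapt 1.9.3 for trimming, HISAT2 2.0.4 for alignment to mm10 and HTSeq 0.9.1 for counting. The deposited gene, lncRNA and circRNA tables hold these raw counts, and the circRNA reads were aligned with STAR 2.5.1b. The counting tool of the lncRNA table, the strand setting and the annotation release are not given in the sources used here. The authors' columns of normalized values (18 columns) and of their own fold changes and p-values were not used.

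Each table was analysed on its own in R 4.3.3 with edgeR 4.0.16: filterByExpr, TMM factors (0.920 to 0.938 in control, 1.07 to 1.08 in H/R libraries), the two-sided quasi-likelihood test without covariates and Benjamini-Hochberg adjustment. CPM is the TMM-scaled count relative to the library total, given as mean ± SD. Coordinates and exon lengths are from GENCODE vM21 (mm10) and promoter sequences from RefSeq (GRCm38.p6). The genes and lists were chosen with earlier results of these data known. Named are all members, in each list up to 4 higher and 4 lower genes ranked by adjusted p, the 3 genes nearest in pattern to Hif1a, Arnt and Egln1, and the transcripts and circRNAs assigned to a member. Rbx1, Tceb2 and the markers complete their lists. Alternatives were DESeq2 1.42.0, no scaling factors, RLE size factors, no filter, 1 CPM in 3 libraries, H/R counts thinned to the control depth, the replicate block, each library left out and the study's thresholds. A length and GC offset (splines with 5 degrees of freedom) and the within-library ratios were added after the data were seen. No pair of replicates was a duplicate, with a chi-square of 8.91 to 30.0 per degree of freedom. The reads carry no molecular identifiers, so PCR copies count as reads. The test was tried on simulated counts in which 200 features were changed. It recovered 32.8% of the genes changed 1.5-fold, 90.9% at 2-fold and 100% at 4-fold. For lncRNAs it recovered 0%, 1.52% and 38.5%. A missing call therefore does not exclude a change of 1.5-fold in a gene or of 2-fold in a lncRNA. The simulation gave every feature the same dispersion, and 154 of 11030 genes were called in it. In the data 37.8% of the tested genes were called, so the adjusted threshold was stricter in the simulation. Its rates need not hold for the real counts. The result of 1 further marker list is not reported here.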

Additional observations from a re-analysis of the deposited data

How the results depend on the processing

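Hif1a and Egln1 were past the threshold in all 14 alternatives, Arnt in 13 and Vhl in 10. Without scaling factors, 3 members were higher and 1 lower, and 14 genes of the pathway lists were higher and 25 lower. In that fit 33.4% of all tested genes were higher and 11.5% lower. At the study's thresholds 0 members were higher and 0 lower. Leaving out each library in turn gave 1 to 2 members higher, 1 in the 4 fits without control replicate 2, control replicate 3, H/R replicate 1 or H/R replicate 2, in which Vhl lost its call. In those fits 2 members stayed lower. Of the genes with no call, the log2 fold change of Epas1 changed sign with the replicate block (0.085), without scaling factors (0.18), without control replicate 3 (0.64) and without H/R replicate 2 (0.12). Hif1an did so with DESeq2 (-0.0098), RLE size factors (-0.0099), the length and GC offset (-0.049), without control replicate 1 (-0.11) and without H/R replicate 2 (-0.023), and Egln3 without control replicate 1 (-0.049). With a library left out, the values ran from -0.32 to 0.64 for Epas1, from -0.11 to 0.054 for Hif1an and from -0.05 to 0.23 for Egln3. The cause was not tested. Whether the replicate numbers pair the samples is not given in the sources used here. The deviations of same-numbered libraries correlated at 0.039, 0.004 and 0.022, and those of different-numbered ones at -0.031 to 0.008. Correlations this small cannot settle how the samples were made. With the replicate block 2 members were higher and 2 lower, 6 and 34 genes of the pathway lists and 22 and 23 of the KEGG list. The counts of Epas1 and Arnt2 were low, at 10 to 55 in the control libraries.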
